A study of Mus musculus with 24 samples.

Results

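The nuclear genes for the subunits of the mitochondrial respiratory chain and of the ATP synthase were followed in mouse cartilage explants under hydrostatic pressure. The members were the protein-coding genes of the count table whose symbol starts with Nduf (a, b, c, s or v), Sdh (a to d), Uqcr, Cox4 to Cox8 or Atp5, without the Ndufaf assembly factors and without pseudogenes, where *Ndufb1* and *Atp5md* were taken by their RefSeq names because GENCODE M21 lists them as *Ndufb1-ps*, a noncoding RNA, and *Usmg5*. This gave 88 of 52178 genes, of which 37 belong to complex I, 4 to complex II, 8 to complex III, 20 to complex IV and 19 to complex V. *Ndufa4* and *Ndufa4l2* carry complex I names but were counted with complex IV, where the *Ndufa4* protein resides, and *Atp5s* was included by its prefix although its protein is not a subunit of the enzyme. Of the 88 genes, 85 had enough reads to be tested, and *Cox7b2*, *Cox8c* and a second gene annotated as *Atp5o* did not.

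Complexes I to IV pass electrons from NADH and succinate to oxygen and, except for complex II, pump protons across the inner mitochondrial membrane, and complex V uses the proton gradient to make ATP. Complex II is encoded by the nucleus alone, whereas the other complexes combine nuclear subunits with subunits read from mitochondrial DNA. Complex IV has subunits with tissue-specific paralogues, such as the heart and muscle forms *Cox6a2*, *Cox7a1* and *Cox8b*, and the c ring of complex V is built from 1 protein encoded by 3 nuclear genes. Chondrocytes lie in avascular tissue with little oxygen and rely mostly on glycolysis, so their respiratory chain is usually described as sparsely used.

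Hip caps and metatarsals of C57/BL6 mice (C57/BL6J in the methods) were compared at 3 pressures in 6 groups of 4 libraries each. Hip caps were the femoral heads of male mice aged 4 weeks, with the 2 hip caps of an animal pooled per sample, and metatarsals came from E15 embryos with 6 bones pooled per sample. Explants were cultured for 24 hours in a medium that differed between the tissues, kept for 1 hour at 0 (control), 5 or 50 MPa, and harvested 24 hours later. No group carried a transgene or a drug. The tissues differ in age, in medium and in the cells around the cartilage, and the sex of the embryos is not given. Tissue, age, medium, surrounding cells and sex therefore cannot be told apart in the tissue comparison. Total RNA, partly degraded, was sequenced after removal of ribosomal RNA.

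Library totals ranged from 4185241 to 25104240 estimated counts. The study left out hip cap control replicate 4 and hip cap 50 MPa replicate 2, so tests used 22 libraries, and values of the 2 libraries left out are given beside the results they touch. Hip cap control replicate 4 had 9264 CPM (counts scaled to a common library total) summed over 10 cartilage marker genes against 50372 to 77448 in the other 3 controls, and hip cap 50 MPa replicate 2 was low for the members as a whole, with 1045 CPM summed over the 88 genes. Cartilage markers were present in every library, and the 19 testable skeletal muscle markers were all lower in hip cap than in metatarsal controls, with summed levels of 14.3 to 24.3 CPM against 1189 to 2811 CPM and 2 of the 20 listed genes at 0 throughout the hip cap controls. Osteoclast markers (8 genes) summed to 326 to 540 CPM in the hip cap controls used and 4648 CPM in the left-out one. In metatarsal controls, where *Calcr* was at 0, they summed to 38.0 to 66.5 CPM. Of the 7 tested, 3 were higher in hip caps and 0 lower. The part of these cells in the tissue differences was not tested. In these bulk samples fewer cells of a type and less RNA per cell cannot be told apart. All 4 hip cap 5 MPa libraries were placed in another sequencing run than the 3 hip cap controls used, and the 3 hip cap 50 MPa libraries used were unstranded as was only 1 of those controls, so in hip caps pressure and these technical terms can largely not be told apart. Of the metatarsal controls, only replicate 1 was placed in the run of the hip cap controls used. Between the controls, tissue and run can therefore largely not be told apart either.

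The members took a small share of the RNA, and their level is given as CPM after TMM scaling, which sets the bulk of genes equal between libraries. Their summed level was 2630 ± 197 CPM (SD, n = 3) in hip cap controls, 2857 ± 353 CPM (n = 4) at 5 MPa and 3035 ± 766 CPM (n = 3) at 50 MPa. In metatarsals it was 1959 ± 22.5 CPM in controls, 2253 ± 197 CPM at 5 MPa and 2347 ± 348 CPM at 50 MPa (n = 4 each). Every hip cap control used lay above every metatarsal control, the pressure groups of hip caps overlapped with their controls, and all 8 metatarsal libraries under pressure lay above the narrow range of the 4 metatarsal controls.

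The order of the tissues depended on the scaling. As a share of all counts the members took 0.133 to 0.187% in hip cap controls and 0.214 to 0.241% in metatarsal controls, which is the other direction, and as a share of protein-coding counts they took 0.356 to 0.437% and 0.415 to 0.421%, which overlap. Protein-coding genes held 33.9 to 44.6% of the counts in the former and 50.7 to 57.8% in the latter. The order within metatarsals held on all 3 scales, with 0.261 to 0.342% of all counts and 0.445 to 0.533% of protein-coding counts at 5 MPa and 0.276 to 0.354% and 0.449 to 0.603% at 50 MPa. In hip caps the members took 0.206 to 0.296% of all counts at 5 MPa, above the controls used, and 0.177 to 0.273% at 50 MPa, which overlaps with them, whereas of protein-coding counts they took 0.423 to 0.535% and 0.460 to 0.645%, of which the first overlaps with the controls used and the second does not. The left-out control took 0.253% and 0.477%, above all metatarsal controls on both scales, and the left-out 50 MPa library 0.0822% and 0.101%. With these 2 libraries neither separation in hip caps held. No test was made on these shares. The tissue differences given next are differences relative to the bulk of genes.

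On the TMM scale all 5 complexes were higher in hip cap than in metatarsal controls. Complex I summed to 765 ± 30.9 CPM in hip cap and 580 ± 14.7 CPM in metatarsal controls, complex II to 147 ± 15.6 and 106 ± 3.42 CPM, complex III to 252 ± 11.1 and 174 ± 7.49 CPM, complex IV to 635 ± 62.7 and 412 ± 16.3 CPM, and complex V to 830 ± 85.6 and 687 ± 19.7 CPM. These sums are levels with no term for run or library type, unlike the fitted differences below.

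**Figure D1:**
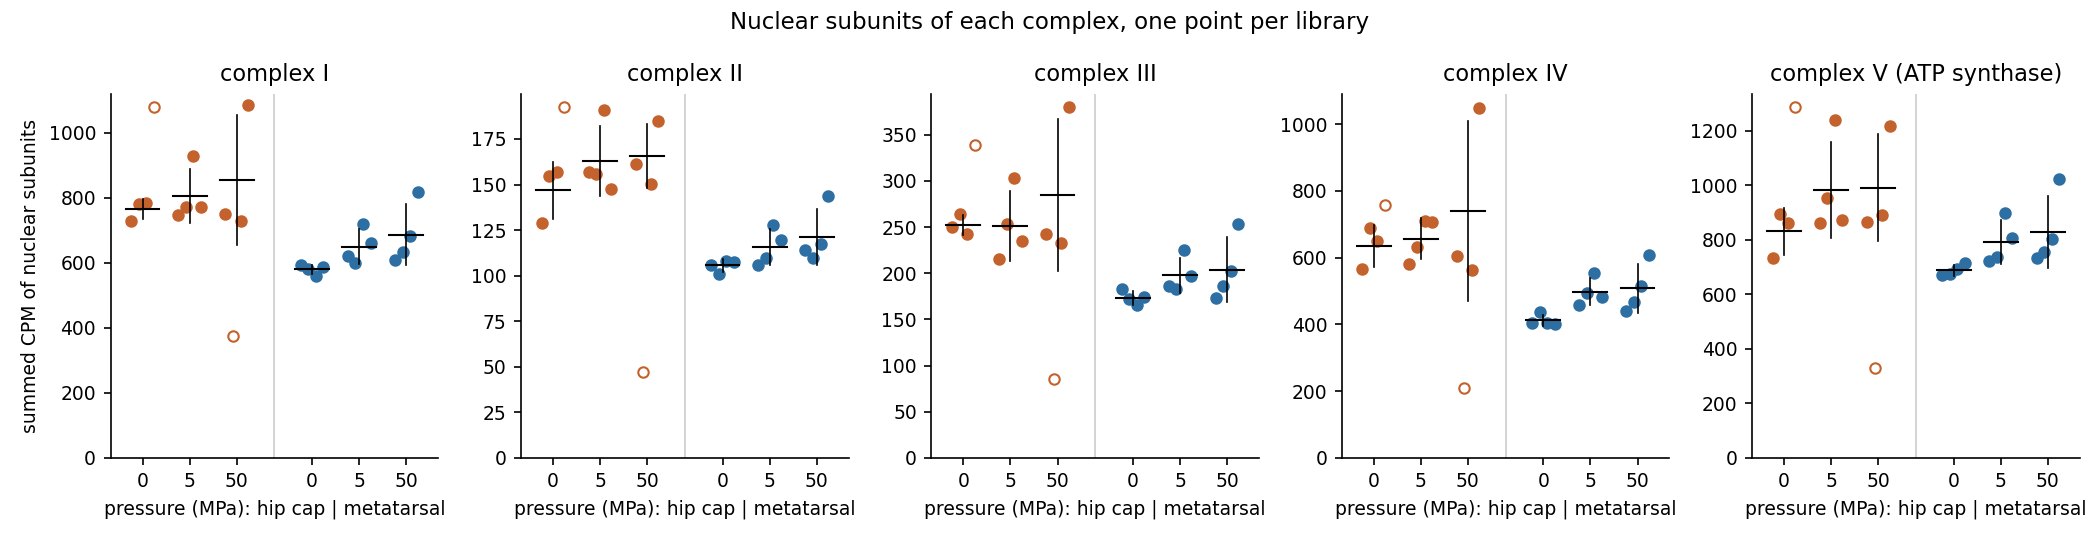
Summed CPM of the subunit genes of complexes I to V (y axis, CPM, from 0) in the 6 groups (x axis), with 1 point per library, bars at the mean and lines of 1 SD over the libraries used. Open circles are the 2 libraries left out. On this TMM scale hip cap controls sit above metatarsal controls for all 5 complexes, the other way round from the share of all counts in the libraries used, and hip cap 50 MPa replicate 2 lies lowest.

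Levels between genes were compared as CPM per kb of the longest coding transcript. In complex III *Uqcrh*, the hinge protein beside cytochrome c1, was the most abundant transcript per length in all 6 groups, at 147 CPM per kb in hip cap controls and 74.3 CPM per kb in metatarsal controls. In complex IV *Ndufa4l2*, a hypoxia-inducible relative of *Ndufa4*, led in hip cap controls at 154 CPM per kb, ahead of *Cox4i1*, the ubiquitous form of subunit 4, at 83.3 CPM per kb, and the order was the other way in metatarsal controls at 69.5 and 75.6 CPM per kb. In complex V *Atp5a1* and *Atp5b*, the alpha and beta subunits of the catalytic head, stood at 86.4 and 77.8 CPM per kb in hip cap controls and at 54.1 and 65.1 CPM per kb in metatarsal controls. In complex II *Sdha*, the flavoprotein that oxidises succinate, had 29.1 CPM per kb in hip cap controls and 16.9 CPM per kb in metatarsal controls. In complex I *Ndufa2* led in hip cap controls at 72.5 CPM per kb. With the median transcript length in place of the longest, *Sdha* came to 46.6 and *Uqcrh* to 169 CPM per kb in hip cap controls, and *Ndufa6* rather than *Ndufa2* led complex I.

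The first comparison asked how the 2 cartilages differed without pressure. Relative to the bulk of genes, hip cap controls had higher levels of 19 and lower levels of 9 of the 85 members tested than metatarsal controls, a split that turned to 1 higher and 41 lower when library sizes replaced TMM scaling. That is 22.4% higher and 10.6% lower, against 14.1% higher and 15.9% lower of all 21283 genes tested. The median log2 difference of the members was 0.14, and that of all genes was -0.08. With library sizes alone the medians were -0.75 and -0.97, and 10 of the 19 higher members came to lie below 0. On that scale 3.35% of all genes were higher and 38.6% lower. The distance of the members from all genes was 0.22 with TMM and 0.21 with library sizes. The GC correction gave 12 higher and 11 lower, and the length correction 14 and 16. Among counts past the threshold, only those with TMM and with library sizes have the share of all genes beside them here. The libraries did not overlap for 31 members that were higher and 6 that were lower in hip caps, which is 36.5% and 7.06% of the members against 20.1% and 22.2% of all genes. By complex, 7 higher and 4 lower genes belonged to complex I, 2 and 0 to complex II, 3 and 1 to complex III, 4 and 3 to complex IV, and 3 and 1 to complex V, with median log2 differences of 0.18, 0.30, 0.43, 0.02 and 0.10. Without batch terms 42 members passed (32 higher, 10 lower), and with all 24 libraries 21 passed (19 higher, 2 lower), of which 12 were among the 28. Metatarsal control replicate 1 was the shallowest library and the only metatarsal control placed in the run of the hip cap controls used. Without it only 9 passed, and without hip cap control replicate 1 or 3 the counts were 17 and 18.

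**Figure D2:**
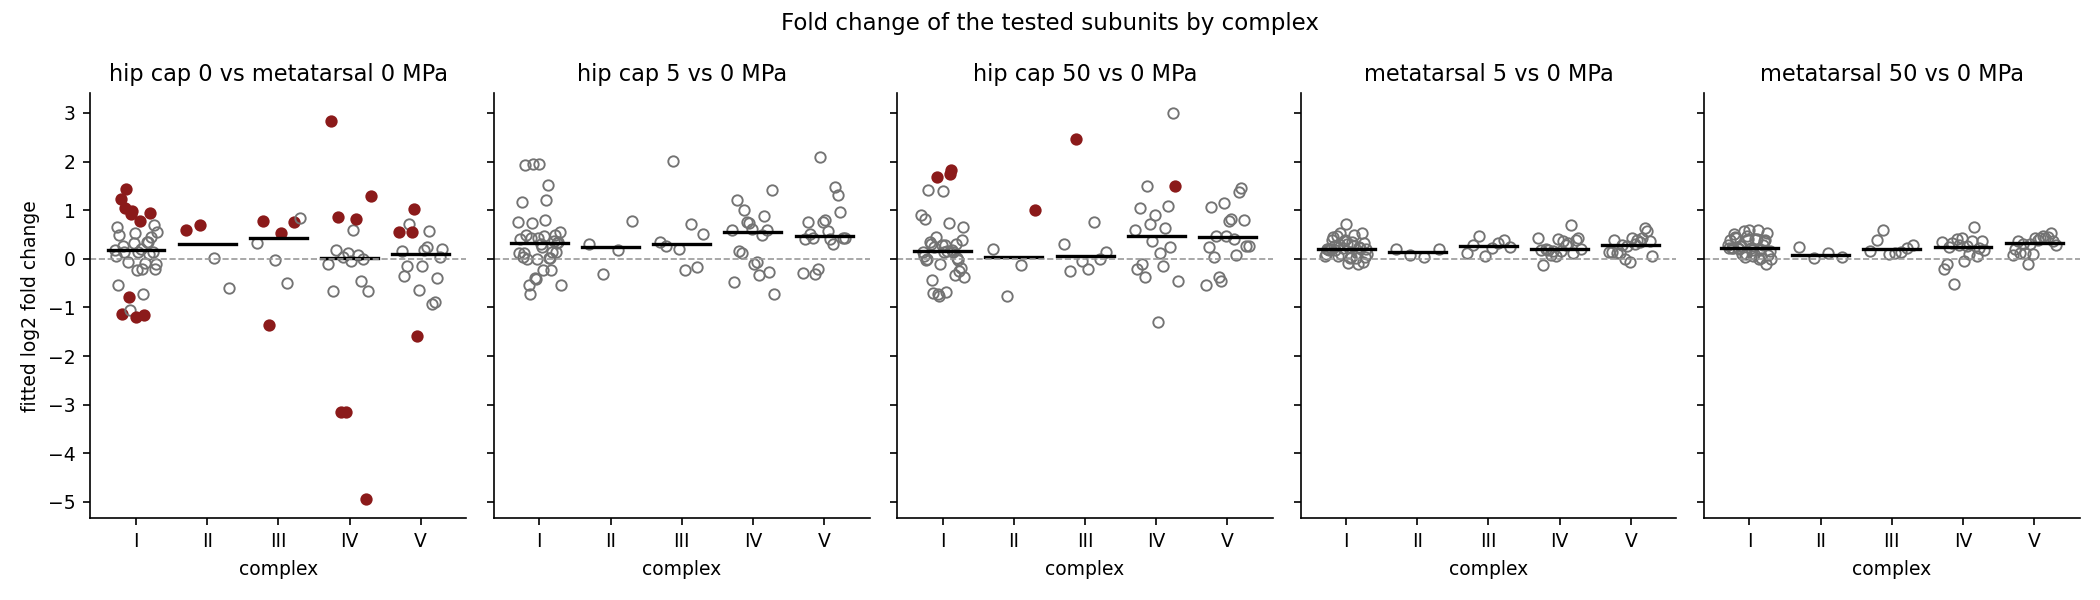
Fitted log2 fold change (y axis) of each tested member by complex (x axis) in each comparison, with members past the adjusted p threshold of 0.05 as filled red points and bars at the median of a complex. Red points appear in the tissue comparison (19 above and 9 below 0, but 1 and 41 with library sizes alone) and for hip caps at 50 MPa (6 above 0).

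The members with the largest differences in either direction were mostly complex IV subunits that exist as paralogues. *Cox4i2*, the isoform of subunit 4 known from lung and from cells short of oxygen, had 58.9, 50.7 and 56.3 CPM in hip cap control replicates 1 to 3 and 7.94, 9.51, 7.53 and 4.98 CPM in the 4 metatarsal controls. The groups did not overlap, and the log2 difference was 2.83 (SE 0.67, adjusted p = 0.00434 by edgeR's quasi-likelihood test). Hip cap control replicate 4, left out of the fit, had 10.3 CPM, and with all 24 libraries the log2 difference was 1.97 (adjusted p = 0.0535). *Cox4i2* was the member that stayed past the threshold and higher with library sizes alone (1.93, adjusted p = 0.00117). *Ndufa4l2* had 132, 139 and 159 CPM against 58.9, 71.2, 76.7 and 52.7 CPM, a log2 difference of 1.29 (SE 0.39, adjusted p = 0.0179). Here too the libraries used did not overlap, but replicate 4 had 57.6 CPM, all 24 libraries gave a log2 difference of 0.73 (adjusted p = 0.299) and library sizes alone 0.37 (adjusted p = 0.435). The common partners of these isoforms did not pass the test, with a log2 difference of -0.11 for *Cox4i1* (SE 0.29, adjusted p = 0.806) and of -0.66 for *Ndufa4* (SE 0.39, adjusted p = 0.218).

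The heart and muscle forms of complex IV lay at the other end. *Cox8b* was at 0, 0.161 and 0 CPM in the 3 hip cap controls and at 1.94, 0.744, 2.04 and 2.99 CPM in the metatarsal controls. Summed over libraries this was 1 count against 99 counts, a ratio of 36.7 per unit of sequencing (95% exact interval 6.44 to 1466, counting error only, adjusted p = 0.00368). *Cox6a2* had 0.269, 0.484 and 0.0962 CPM against 1.94, 2.66, 2.60 and 5.82 CPM, which is 5 counts against 182 counts and a ratio of 13.5 (interval 5.68 to 42.1, adjusted p = 0.0135). Neither gene overlapped between the groups, and for genes with so few reads the fitted log2 differences of -4.93 and -3.15 depend on the prior count and give no bound. *Cox6b2*, best known from testis, had 1.08, 0.484 and 0.0962 CPM against 2.52, 4.57, 4.19 and 6.20 CPM, with a log2 difference of -3.15 (SE 0.73, adjusted p = 0.00239). Replicate 4 of the hip cap controls, at 4.86 CPM, lay within the metatarsal range, and with all 24 libraries the difference of *Cox6b2* was -1.11 (adjusted p = 0.234). *Cox7a1*, the other muscle isoform, was at or below 0.637 CPM in all 7 control libraries used, and no difference was detectable at this depth. The skeletal muscle markers moved with these 3 genes, as their summed levels above show, and their part in the differences was not tested.

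The ubiquitous partners of the muscle forms gave smaller values. *Cox6a1* was higher in hip caps, at 48.4, 39.6 and 52.8 CPM against 20.1, 32.0, 24.6 and 22.3 CPM, a log2 difference of 0.87 (SE 0.32, adjusted p = 0.0445). *Cox7a2l*, a relative of *Cox7a2*, was also higher, at 92.0, 93.2 and 92.7 CPM against 50.0, 49.9, 46.3 and 51.3 CPM (log2 difference 0.81, SE 0.23, adjusted p = 0.0114). *Cox7a2*, *Cox6b1* and *Cox8a* did not pass, with log2 differences of 0.59 (SE 0.27), 0.05 (SE 0.34) and -0.00 (SE 0.26). With library sizes alone *Cox6a1* and *Cox7a2l* lay just below 0, at -0.02 and -0.10. *Cox7b2* and *Cox8c*, forms known from testis, had at most 5 and 2 counts in any library.

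**Figure D3:**
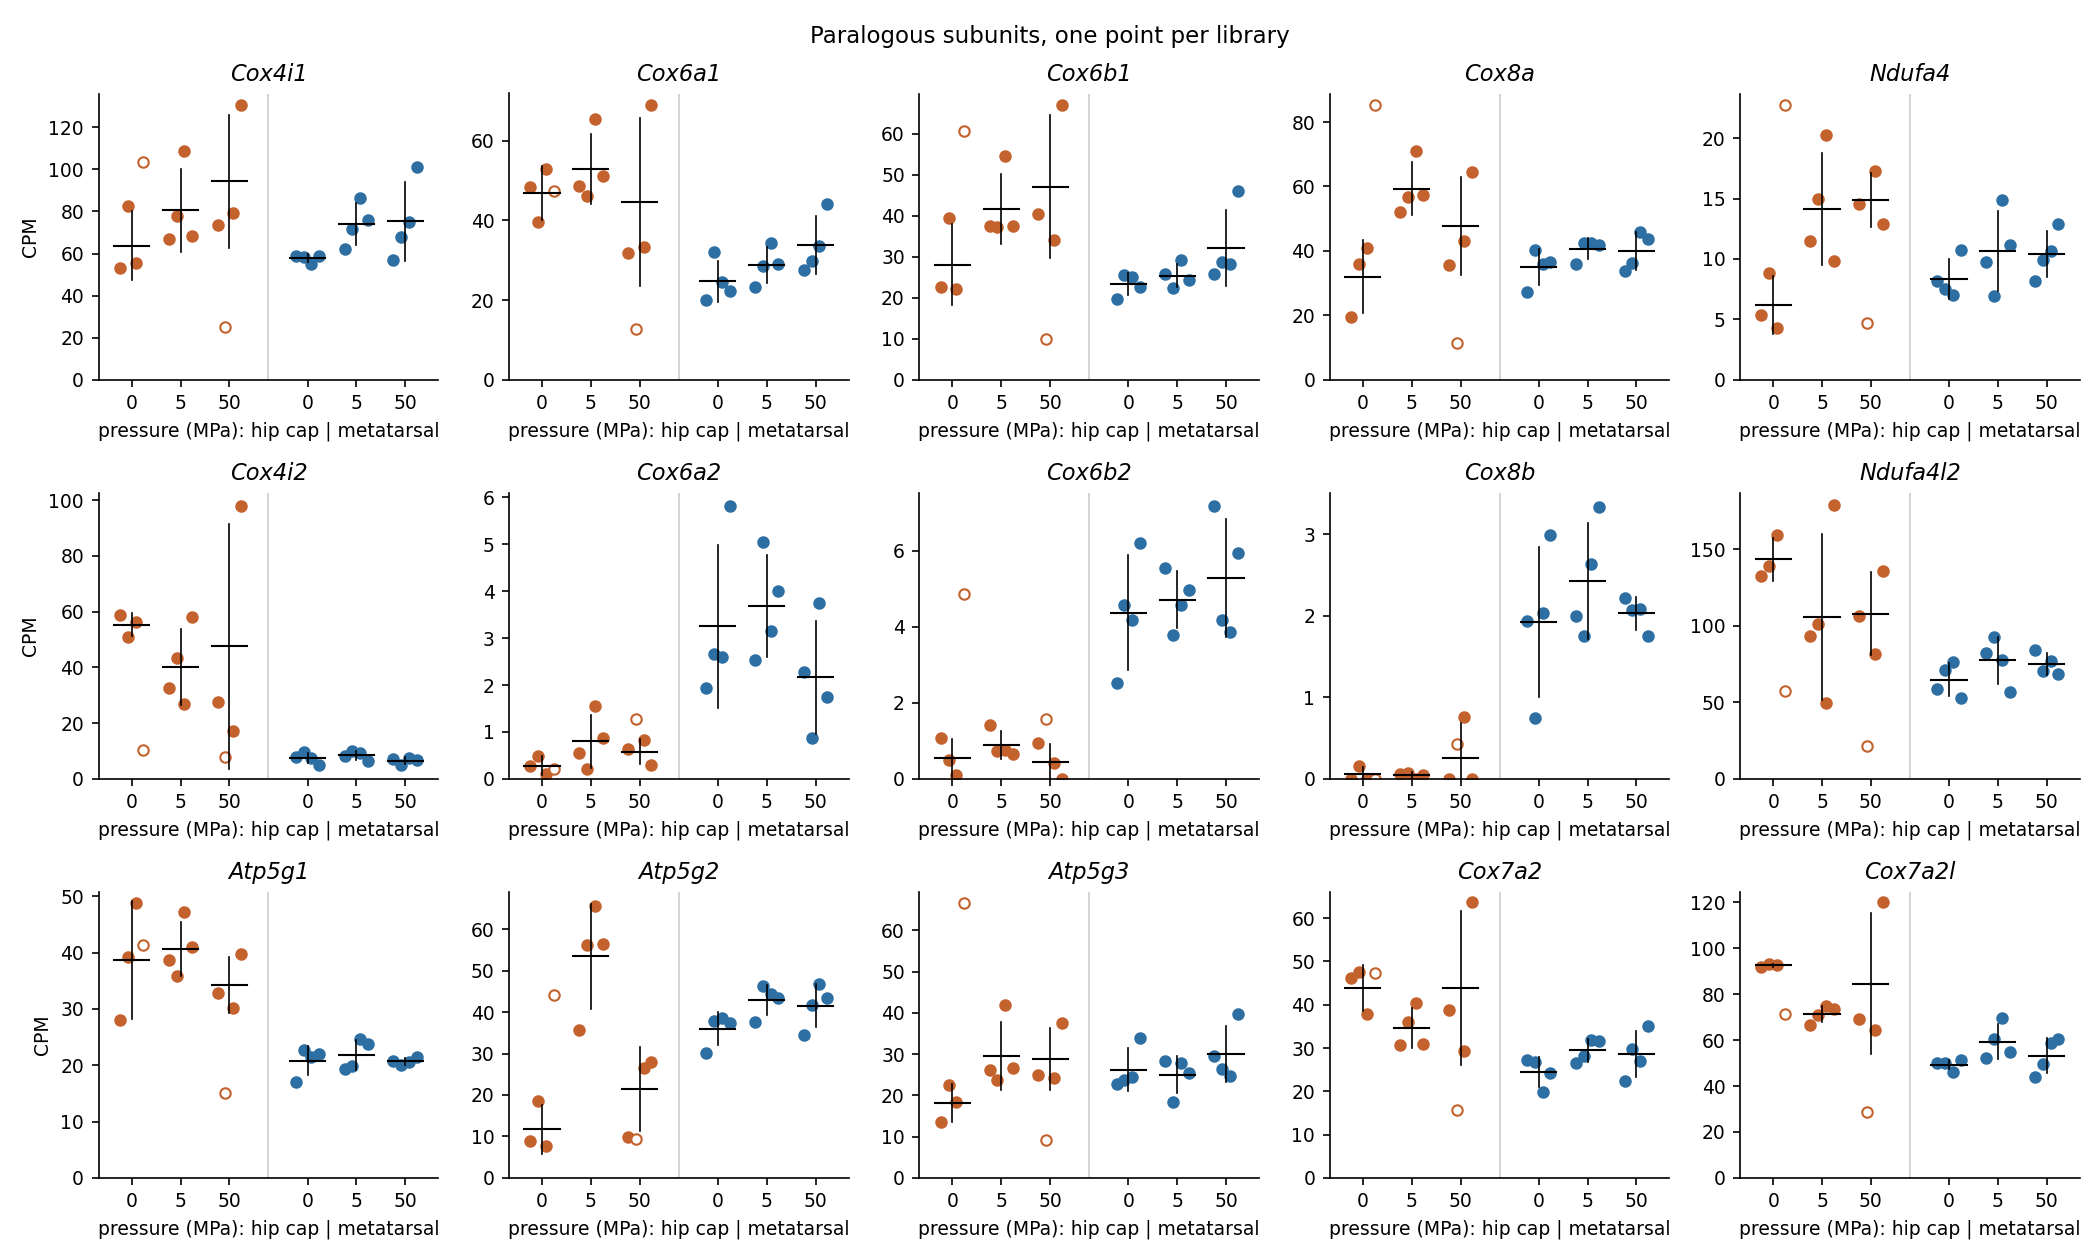
CPM (y axes, from 0) of complex IV paralogues and of the c subunit genes of complex V in the 6 groups, with 1 point per library, bars at the mean and lines of 1 SD over the libraries used. Open circles are the 2 libraries left out. *Cox4i2* and *Ndufa4l2* are higher and *Cox6b2* and *Cox8b* lower in the hip cap controls used than in metatarsal controls, while *Atp5g1* is higher and *Atp5g2* lower on this TMM scale, the latter only before the counts of its pseudogenes are added. With library sizes alone the difference of *Atp5g1* is near 0.

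The 3 genes of the c subunit did not share 1 direction between the tissues. *Atp5g1* was higher in hip cap controls, at 28.0, 39.2 and 48.8 CPM against 17.0, 22.7, 21.4 and 22.1 CPM, and its log2 difference of 1.02 (SE 0.19, adjusted p = 0.000324) passed in all 22 fits that left out a library and with all 24 libraries, but was 0.11 (adjusted p = 0.784) with library sizes alone. *Atp5g2* was lower, at 8.88, 18.6 and 7.69 CPM against 30.0, 37.9, 38.6 and 37.4 CPM (log2 difference -1.59, SE 0.41, adjusted p = 0.00626), but turned to 0.42 (adjusted p = 0.173) once the counts of *Gm10175* and *Gm10231* were added to it. These pseudogenes share all their 31-base words with *Atp5g2*, so their reads cannot be told from those of *Atp5g2*. *Gm10175* had 30.4, 16.6 and 36.0 CPM in the hip cap controls and 0 in all 12 metatarsal libraries, and *Atp5g2* together with both pseudogenes came to 46.6, 36.5 and 50.8 CPM against 30.0, 37.9, 38.6 and 37.4 CPM, with overlap. The lower value of *Atp5g2* was therefore not seen in the sum. The left-out hip cap control, however, had 44.1 CPM of *Atp5g2*, and with all 24 libraries its difference was -0.63 (adjusted p = 0.251). *Atp5g3* had 13.5, 22.6 and 18.3 CPM against 22.7, 23.6, 24.4 and 33.9 CPM and did not pass (log2 difference -0.64, SE 0.31, adjusted p = 0.129). All 3 genes encode the same mature protein behind different import signals.

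Their promoters are shown because the c subunit genes share a product and were counted at different levels. Each line gives the 150 bases before the RefSeq start (GRCm38.p6), 5′ to 3′ on the gene's strand, in lower case with the letters of 5 searched motifs in capitals. The stretches are chr11:96075632-96075781 on the minus strand, chr15:102671048-102671197 on the minus strand and chr2:73911327-73911476 on the minus strand, and *Ndufa8* (chr2:36049339-36049488 on the minus strand) and *Cox8b* (chr7:140900447-140900596 on the minus strand) were added as the highest complex I gene and the lowest gene of the tissue comparison.
Atp5g1: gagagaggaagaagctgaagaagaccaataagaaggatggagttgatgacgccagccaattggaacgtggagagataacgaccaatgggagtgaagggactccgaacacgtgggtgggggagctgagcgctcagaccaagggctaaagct
Atp5g2: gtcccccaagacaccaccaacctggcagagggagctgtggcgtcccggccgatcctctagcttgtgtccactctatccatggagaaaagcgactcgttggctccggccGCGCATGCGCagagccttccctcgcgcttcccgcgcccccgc
Atp5g3: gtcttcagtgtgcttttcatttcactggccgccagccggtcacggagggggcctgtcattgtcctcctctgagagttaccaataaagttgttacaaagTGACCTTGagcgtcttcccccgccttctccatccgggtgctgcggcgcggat
Ndufa8: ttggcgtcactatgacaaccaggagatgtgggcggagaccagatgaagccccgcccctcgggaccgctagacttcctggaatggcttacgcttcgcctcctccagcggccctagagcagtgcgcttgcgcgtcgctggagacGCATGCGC
Cox8b: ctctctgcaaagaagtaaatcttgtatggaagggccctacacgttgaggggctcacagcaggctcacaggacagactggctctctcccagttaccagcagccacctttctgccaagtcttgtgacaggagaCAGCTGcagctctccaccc
*Atp5g1* held none of the 5 motifs in this stretch. *Atp5g2* held the core of the nuclear respiratory factor motif (NRF1, GCATGCGC) on both strands in overlapping positions, the first base lying 40 and 42 bases before the start, and *Ndufa8* held it once, directly before the start. *Atp5g3* held the oestrogen-related receptor motif (ERR, CAAGGTCA) on the reverse strand, and *Cox8b* an E-box (CAGCTG), the motif of myogenic factors.

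A window from 250 bases before to 50 bases after the start was available for 71 members, and the share with each motif on either strand was set beside that of 17492 protein-coding genes. NRF1 letters were found in 14.1% of members and 3.94% of all genes, ERR letters in 5.63% and 1.56%, YY1 letters (AAGATGGC) in 14.1% and 3.57%, ETS letters (CCGGAAG) in 23.9% and 12.9%, and the E-box in 8.45% and 17.4%. All YY1 matches lay in complexes I and V, with 7 of 33 and 3 of 16 genes. A match describes letters in the window and does not show that a factor bound there.

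Further members of complexes I, II and V passed in hip caps. *Ndufa8*, an accessory subunit facing the intermembrane space, had 37.1, 22.1 and 31.4 CPM against 9.69, 12.1, 7.64 and 7.73 CPM, a log2 difference of 1.44 (SE 0.33, adjusted p = 0.00214) with no overlap, which was 0.56 (adjusted p = 0.161) with library sizes alone. *Ndufa2*, *Ndufa7*, *Ndufb11*, *Ndufs5*, *Ndufb10* and *Ndufb7* were also higher, by 0.77 to 1.23 on the log2 scale. *Ndufb4*, *Ndufc2*, *Ndufa3* and *Ndufab1*, of which the last is also the acyl carrier protein of mitochondria, were lower, by log2 differences of -1.19, -1.15, -1.13 and -0.79. The first 3 of these 4 overlapped between the groups, and with all 24 libraries their differences turned to 0.26, 0.16 and 0.30. In complex III *Uqcr11*, *Uqcrh* and *Uqcrc2* were higher and *Uqcrb* was lower (log2 difference -1.37, SE 0.50, adjusted p = 0.0478), although hip cap control replicate 2 lay among the metatarsal controls and all 24 libraries gave -0.63 (adjusted p = 0.342). Over the 22 fits that each left out a library, *Ndufa7* and *Atp5g1* passed in all, *Uqcrb* in 3, *Ndufc2* in 4, *Ndufb4* in 8 and *Atp5a1* in 9, and *Ndufb4* also did not pass with its pseudogene counts added (-0.69, adjusted p = 0.124).

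Of the catalytic and structural core subunits *Sdha*, *Sdhb* and *Atp5a1* passed, all higher in hip caps, beside 14.1% higher and 15.9% lower of all genes. *Sdha* was higher in hip cap controls, at 69.2, 99.8 and 84.0 CPM against 55.6, 49.1, 46.2 and 45.5 CPM (log2 difference 0.59, SE 0.17, adjusted p = 0.0138). *Sdhb*, its iron-sulphur partner, was higher at 30.9, 16.6 and 37.1 CPM against 14.1, 16.7, 18.8 and 16.7 CPM (0.69, SE 0.23, adjusted p = 0.0287), although the groups overlapped. *Atp5a1* was higher at 228, 181 and 284 CPM against 133, 134, 153 and 159 CPM (0.55, SE 0.20, adjusted p = 0.0479). *Ndufs1* and *Ndufv1*, which carry the entry of electrons from NADH, had log2 differences of -0.08 (SE 0.17) and -0.20 (SE 0.20). *Uqcrc1*, *Uqcrfs1* and *Cox5a* gave -0.03 (SE 0.22), -0.50 (SE 0.27) and -0.66 (SE 0.31), and *Atp5b* gave 0.16 (SE 0.21). None of these 6 passed the test, and with library sizes alone *Sdha*, *Sdhb* and *Atp5a1* came to -0.33, -0.20 and -0.37.

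For hip caps the next question was what 50 MPa, a pressure above that of normal loading, did to the members. At 50 MPa 6 of the 85 members rose and 0 fell, a split of 5 and 2 when TMM factors were taken without the mitochondrially encoded genes, 12 and 3 with the length correction, 17 and 2 by DESeq2 and 1 and 0 with library sizes alone. The 6 members are 7.06% against 3.32% of all genes higher and 1.86% lower. Of all genes, 2.76% were higher and 2.38% lower without the mitochondrially encoded genes in the factors, and 7.24% and 4.30% by DESeq2. With library sizes alone the shares of all genes were 0.174% and 0.0329%. The 6 were *Uqcrb*, *Ndufc2*, *Ndufc1*, *Ndufb1*, *Ndufa4* and *Sdhd*, small subunits of complexes I to IV, and none of complex V passed. Cell type markers moved with the pressure in the libraries used without overlap, as cartilage markers summed to 32667 to 37425 CPM at 50 MPa against 50372 to 77448 CPM in controls (2 of 10 lower, 0 higher), osteoclast markers to 548 to 1631 against 326 to 540 CPM and macrophage markers (8 genes) to 75.7 to 93.8 against 25.3 to 42.1 CPM, of which 0 of 7 tested passed in either list. The lowest of these markers were *Calcr* and *Cd163*, at 0 in 1 control and in 1 library at 50 MPa respectively. Skeletal muscle markers (20 genes) summed to 40.4 to 65.2 against 14.3 to 24.3 CPM, also without overlap and with 2 genes at 0 throughout each group. The left-out control and 50 MPa library had 84.7 and 219 CPM of these muscle markers. Of osteoclast markers they had 4648 and 232 CPM, of macrophage markers 286 and 34.6 CPM, and of cartilage markers 9264 and 13098 CPM. With these libraries none of the separations of marker sums held. The part of these cells in the result was not tested. The median log2 fold change was 0.25 for the members and 0.02 for all genes, and by complex it was 0.17, 0.03, 0.07, 0.48 and 0.44 from I to V. Setting 2 complex IV genes with 3 counts or fewer in each control library to the bound of their interval lowered the value for complex IV from 0.48 to 0.24. At an unadjusted p under 0.05, 25 members were higher and 8 lower, together 38.8% against 22.6% of all genes. Of the 21283 genes, 2732 were higher and 2087 lower at this level. The libraries used did not overlap for 14 members that were higher and 0 that were lower (16.5% and 0%, against 7.23% and 8.87% of all genes).

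*Uqcrb*, which binds ubiquinone in complex III, had 3.23, 21.2 and 3.85 CPM in the 3 controls and 15.8, 23.3 and 40.9 CPM in replicates 1, 3 and 4 at 50 MPa. The groups overlapped, and the log2 fold change was 2.46 (SE 0.59, adjusted p = 0.0288). *Ndufc2* had 4.04, 16.3 and 3.56 CPM and then 12.8, 14.9 and 25.7 CPM (1.83, SE 0.49, adjusted p = 0.0383). *Ndufc1* had 2.42, 9.69 and 2.88 CPM and then 9.51, 9.16 and 13.7 CPM (1.75, SE 0.41, adjusted p = 0.0213). For these 3 genes control replicates 1 and 3 were low and control replicate 2 stood among the 50 MPa libraries.

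*Ndufb1* had 1.08, 8.07 and 3.56 CPM in controls and 10.4, 11.2 and 15.2 CPM at 50 MPa (1.69, SE 0.47, adjusted p = 0.0412). *Ndufa4* had 5.38, 8.88 and 4.33 CPM and then 14.5, 17.3 and 12.9 CPM (1.51, SE 0.42, adjusted p = 0.0440). *Sdhd*, which anchors complex II in the membrane, had 12.6, 19.9 and 12.5 CPM and then 28.3, 25.3 and 29.5 CPM (1.01, SE 0.29, adjusted p = 0.0472). For these 3 the groups did not overlap, but in the 2 libraries left out the order was the other way round, as control replicate 4 had 24.8, 22.7 and 19.0 CPM and 50 MPa replicate 2 had 5.11, 4.68 and 5.11 CPM.

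**Figure D4:**
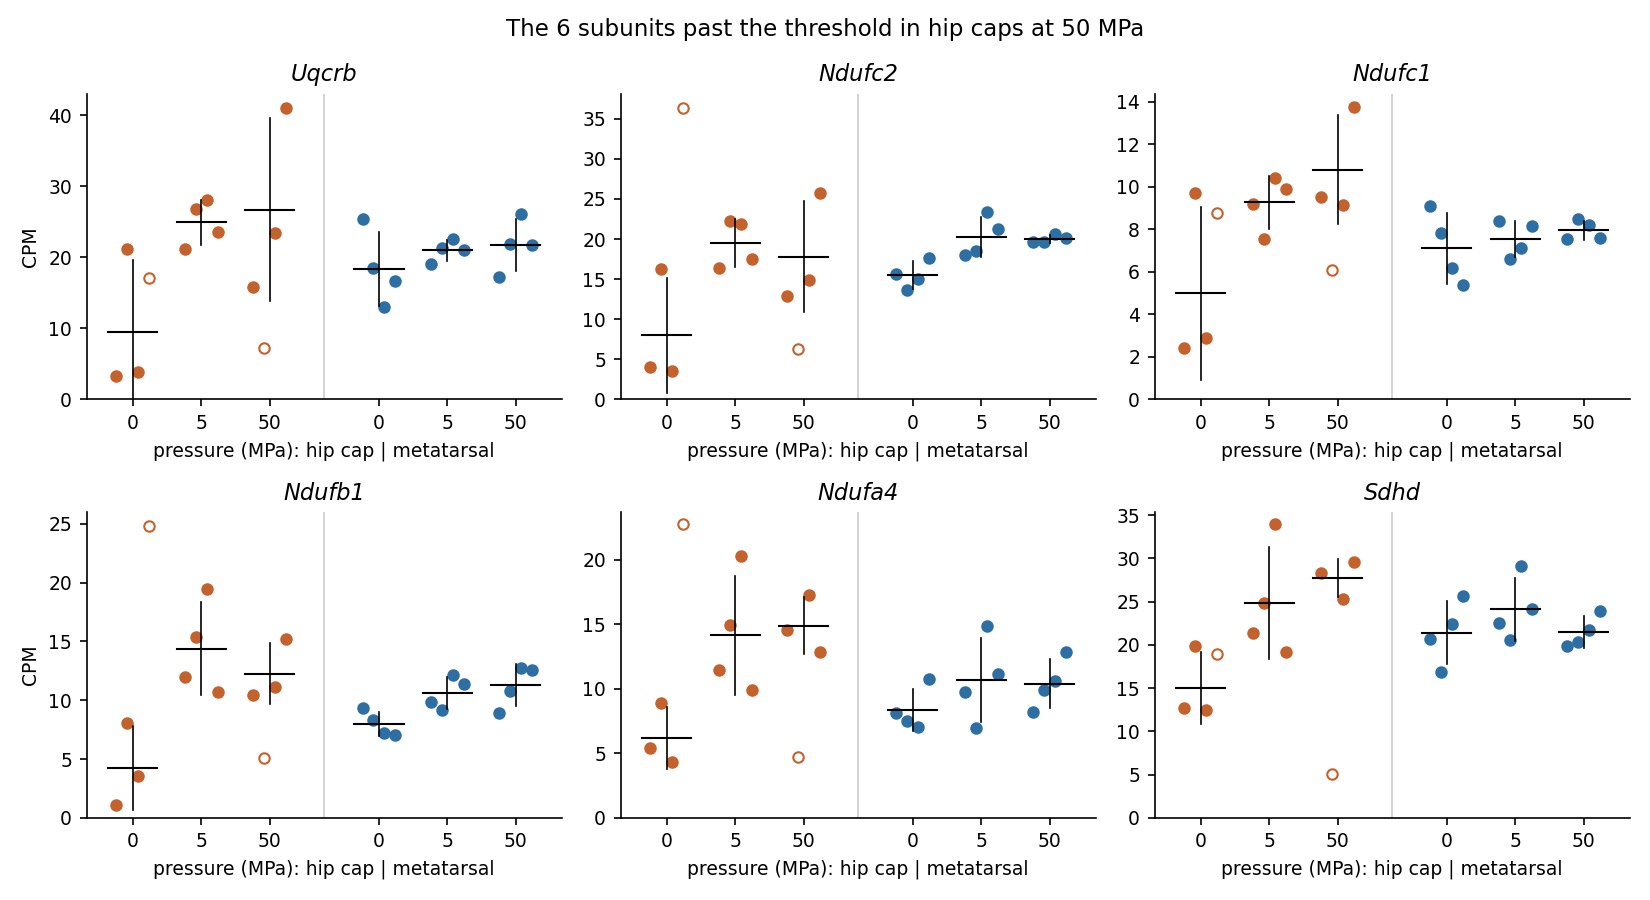
CPM (y axes, from 0) of the 6 members past the threshold in hip caps at 50 MPa, in all 6 groups, with 1 point per library, bars at the mean and lines of 1 SD over the libraries used. Open circles are the 2 libraries left out. Control replicates 1 and 3 are low for all 6 genes, and the left-out control lies above the left-out 50 MPa library.

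The calls in hip caps at 50 MPa rested on few libraries. With all 24 libraries 0 members passed and the median log2 fold change of the members turned to -0.23, while that of all genes was 0.22. With the trend in GC content removed, within the hip cap libraries of run 1 alone, or without control replicate 3, 0 passed as well, and without control replicate 2 the number was 22. Control replicates 1 and 3 also had 478 and 254 CPM summed over the 13 mitochondrially encoded subunits, against 5824 CPM in control replicate 2 and 3241 to 8801 CPM in the 50 MPa libraries used, and the part of this in the result was not tested. Of the core subunits none passed. *Cox5a* had the highest value among them, 1.05 (SE 0.33, adjusted p = 0.0668), and *Sdhb* the lowest, -0.76 (SE 0.23, adjusted p = 0.0570), followed by *Atp5a1* at -0.53 (SE 0.21, adjusted p = 0.133). *Cox8b* was listed at 0 counts in replicates 1 and 4 of the 50 MPa hip caps but at 11 counts in replicate 3, against 1 count in the controls, a ratio of 8.12 (95% exact interval 1.18 to 349, counting error only). Skeletal muscle markers summed to 65.2 CPM in replicate 3 against 40.4 and 44.7 CPM in replicates 1 and 4, and their part in this value was not tested.

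At 5 MPa, a pressure in the range of normal joint loading, 0 of the 85 members passed in hip caps, beside 0.0188% of all genes. At an unadjusted p under 0.05 there were 21 members, all higher, or 24.7% against 14.8% of all genes, and DESeq2 called 12 members, all higher, and 2.71% of all genes. The median log2 fold change was 0.42 for the members and 0.01 for all genes, and 64 of 85 were above 0. With all 24 libraries the median was -0.08. Osteoclast markers summed to 569 to 1767 CPM against 326 to 540 CPM in controls and macrophage markers to 48.7 to 213 against 25.3 to 42.1 CPM, without overlap and with 0 of 7 tested past the threshold in either list. Skeletal muscle markers summed to 25.8 to 49.0 against 14.3 to 24.3 CPM, also without overlap among the libraries used. The left-out control had 4648 CPM of osteoclast, 286 CPM of macrophage and 84.7 CPM of skeletal muscle markers, above every 5 MPa library. The part of these markers in the shift was not tested. The highest value was that of *Atp5g2*, with 35.7, 56.1, 65.6 and 56.6 CPM at 5 MPa against 8.88, 18.6 and 7.69 CPM in controls (2.10, SE 0.46, adjusted p = 0.106). The groups did not overlap among the libraries used, but the left-out control had 44.1 CPM, and with the pseudogene counts added the log2 fold change was 0.21 (adjusted p = 0.733) while *Gm10175* had 16.8, 0, 0.320 and 0.559 CPM. The lowest was that of *Ndufa8*, with 17.1, 13.3, 14.8 and 16.7 CPM against 37.1, 22.1 and 31.4 CPM (-0.72, adjusted p = 0.354). *Ndufa3*, *Ndufa12*, *Ndufb1* and *Ndufb4* followed *Atp5g2* in the order of p, with log2 fold changes of 1.94, 1.17, 1.95 and 1.94 and adjusted p-values of 0.106 to 0.140.

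In metatarsals the question was the same for the embryonic cartilage, and 0 members passed at either pressure, as did 0% of all genes. DESeq2 also called 0 members at both pressures, beside 0.0611% of all genes at 5 MPa and 0.0423% at 50 MPa. At an unadjusted p under 0.05, 9 members were higher at 5 MPa and 9 at 50 MPa (10.6% each, against 3.24% and 3.89% of all genes), and 0 were lower. Most values were nevertheless slightly positive, with 79 of 85 above 0 at 5 MPa and 77 of 85 at 50 MPa, against 49.5% and 50.3% of all genes, and with median log2 fold changes of 0.21 and 0.25 against -0.00 and 0.00. With library sizes alone the medians were 0.46 and 0.52 against 0.24 and 0.26. Both comparisons share the 4 controls, and the members share those libraries, so these counts are not counts of separate observations. The members are short, and their values also ran with transcript length. Their rank correlations with it were -0.19 at 5 MPa and -0.34 at 50 MPa, beside -0.15 and -0.16 across protein-coding genes. With the length trend removed most member values stayed above 0 at both pressures, and the part of length in the shift was not tested.

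The highest metatarsal values belonged to *Ndufb4* at 5 MPa and to *Cox7c* at 50 MPa. *Ndufb4*, an accessory subunit of complex I, had 10.4, 9.72, 15.7 and 12.5 CPM at 5 MPa against 10.5, 9.35, 7.19 and 5.51 CPM in controls (0.71, SE 0.30, adjusted p = 1). *Cox7c*, a small complex IV subunit, had 30.0, 42.5, 43.1 and 38.8 CPM at 50 MPa against 30.8, 27.6, 26.3 and 21.4 CPM (0.66, SE 0.27, adjusted p = 1), and 32.9, 40.3, 46.2 and 41.7 CPM at 5 MPa (0.70, SE 0.27). *Ndufb4* overlapped with the controls and *Cox7c* overlapped at 50 MPa but not at 5 MPa. The lowest were *Cox5a* at 5 MPa (-0.13, SE 0.22, and 0.10 with library sizes alone) and *Cox6a2* at 50 MPa, with 2.28, 0.879, 3.74 and 1.75 CPM against 1.94, 2.66, 2.60 and 5.82 CPM (-0.53, adjusted p = 1). The core subunits ranged from -0.13 to 0.44 at the lower pressure and from -0.11 to 0.35 at the higher, with *Cox4i1* highest in both. Replicate 4 at 50 MPa, the only unstranded metatarsal library, had the highest summed level of the members, 2846 CPM, against 2071 CPM in the lowest of its group.

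Whether pressure acted differently in the 2 tissues was tested as the interaction of tissue and pressure. At 5 MPa 0 members passed, beside 0.0188% of all genes, with 18 at an unadjusted p under 0.05 (21.2% against 11.2%), of which 11 were higher and 7 lower in hip caps, and DESeq2 called 1 member and 0.601% of all genes. At 50 MPa 0 members passed, beside 0.132% of all genes, with 19 at an unadjusted p under 0.05 (22.4% against 18.3%), of which 9 were higher and 10 lower, and DESeq2 called 5 members and 6.34% of all genes. The extremes at 5 MPa were *Atp5g2* (1.83, SE 0.49, adjusted p = 0.288, with 0.0306 by DESeq2 and a value of 0.02, adjusted p = 0.994, once pseudogene counts were added) and *Ndufa8* (-1.20, SE 0.39, adjusted p = 0.318). Those at 50 MPa were *Cox8b* (2.78) and *Cox7a1* (-1.25, adjusted p = 0.679), genes of few counts in hip caps, and without hip cap 50 MPa replicate 3 the value for *Cox8b* was -2.65. Of the 6 members past the threshold in hip caps at 50 MPa none passed the interaction in edgeR, where *Uqcrb* had 1.87 (SE 0.60, adjusted p = 0.121) and *Ndufc1* 1.35 (SE 0.43, adjusted p = 0.110). Both passed by DESeq2 (adjusted p = 0.0135 and 0.0152) and without hip cap control replicate 2 (adjusted p = 0.00154 and 0.00349).

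The 13 subunits read from mitochondrial DNA had larger differences than their nuclear partners. In hip cap controls 12 of 13 were lower than in metatarsal controls and 0 were higher, with a median log2 difference of -3.31, while the median of the nuclear members was 0.14. In hip caps 1 of 13 rose at 5 MPa (*mt-Co2*, 3.97, SE 0.52, adjusted p = 0.00781) and 6 of 13 at 50 MPa, with medians of 3.74 and 3.93. With library sizes alone 13 of 13 were lower in hip cap controls, and 2 and 1 rose under the respective pressures. In metatarsals 0 of 13 passed at either pressure and the medians were 0.23 and 0.48. *mt-Co2*, a catalytic subunit of complex IV, passed in both interactions as well (3.54, adjusted p = 0.0298, and 2.99, adjusted p = 0.0440), but in neither with library sizes alone (adjusted p = 0.402 and 0.351). The summed level in the hip cap control group ran from 254 to 5824 CPM over the 3 libraries used, with 9330 CPM in replicate 4, whereas the nuclear sum ran from 2409 to 2785 CPM over those 3 libraries.

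**Figure D5:**
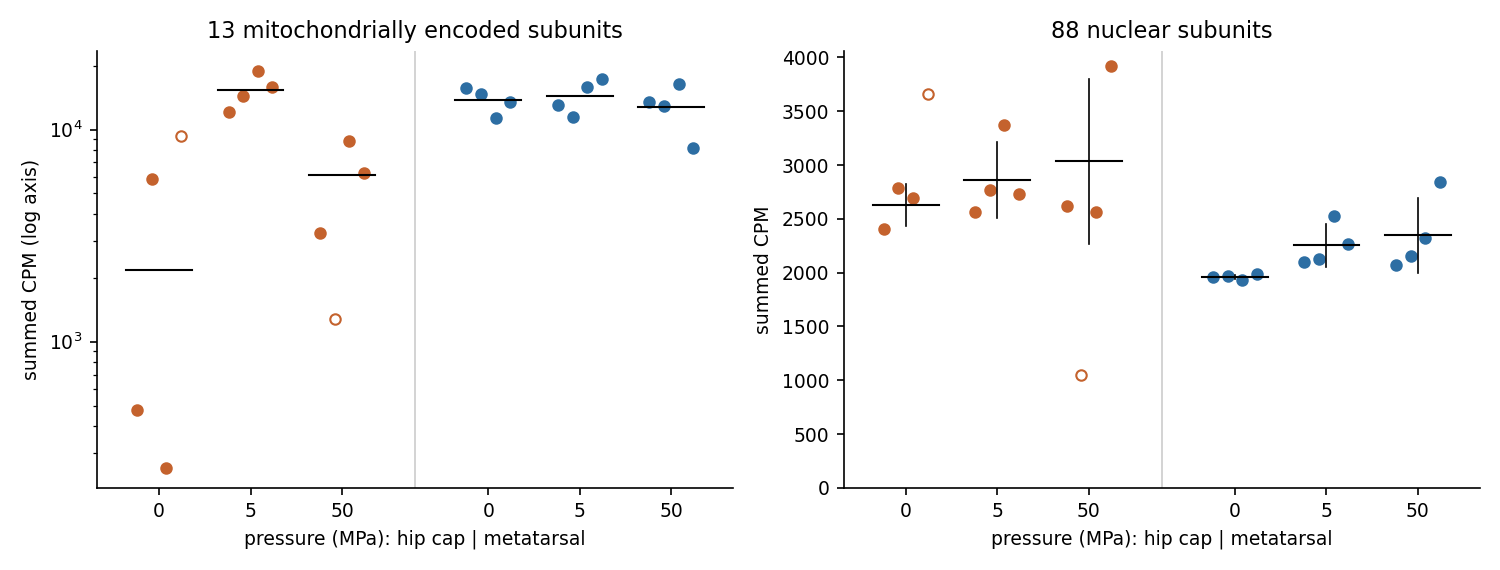
Summed CPM of the 13 mitochondrially encoded subunits (log axis) and of the 88 nuclear members (linear axis) in each library of the 6 groups, with open circles for the 2 libraries left out. Hip cap control replicates 1 and 3 lie at 478 and 254 CPM in the mitochondrial sum and at 2409 and 2696 CPM in the nuclear sum, the former being the lowest of the hip cap libraries used.

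Of the genes that build or regulate the complexes, 46 assembly factors and 11 regulators were counted. For both lists the shares of all genes in the tissue comparison were 14.1% higher and 15.9% lower. Relative to the bulk of genes 7 of the 46 assembly factors were higher, near the share of all genes, and 1 was lower in hip caps. The higher ones were led by *Sdhaf4* for complex II (2.19, SE 0.55, adjusted p = 0.00475) and *Ndufaf3* for complex I (1.88, SE 0.45, adjusted p = 0.00309), and *Coa5* for complex IV was the lower one (-0.81, SE 0.30, adjusted p = 0.0482). With library sizes alone 0 assembly factors were higher and 13 lower, beside 3.35% and 38.6% of all genes. *Sdhaf4* and *Ndufaf3* then gave 1.39 (adjusted p = 0.0689) and 1.13 (adjusted p = 0.0858). Among regulators 0 were higher and 4 were lower, namely the coactivators *Ppargc1a* (-2.94, SE 0.45, adjusted p = 4.75e-05), *Ppargc1b* (-1.26, SE 0.41, adjusted p = 0.0254) and *Pprc1* (-0.44, SE 0.15, adjusted p = 0.0279) and the mitochondrial transcription factor *Tfam* (-0.81, SE 0.17, adjusted p = 0.000981), and with library sizes alone 8 were lower, these 4 included. Under pressure only *Coa5* passed, in hip caps at 50 MPa (1.25, SE 0.33, adjusted p = 0.0368, but 0.0871 with library sizes alone), and 0 factors or regulators passed in the other 3 pressure comparisons. *Cycs* and *Cyc1*, cytochrome c and cytochrome c1, passed in no comparison.

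The members share properties that the choice of genes did not use. They are short, with a median transcript length of 667 bases against 2269 bases for protein-coding genes tested, and had a median GC content of 51.5% against 49.8%. Across members, which share libraries and are not independent, the rank correlation of the log2 difference with GC content was 0.21 between tissues, -0.27 and -0.33 in hip caps at 5 and 50 MPa, and -0.21 and -0.22 in metatarsals, beside 0.19, -0.25, -0.39, -0.28 and -0.21 across protein-coding genes. With median transcript length it was 0.11, -0.23, -0.25, -0.19 and -0.34 in the same order, beside -0.11, -0.02, 0.01, -0.15 and -0.16 across protein-coding genes. The median coefficient of variation within a group was 22.8% for members and 28.3% for all genes in hip cap controls and 27.1% and 26.3% at 50 MPa, against 13.8% and 17.8% in metatarsal controls. Near-identical pseudogenes make some values uncertain, above all for *Atp5g2*, where they took 11.2% of the combined counts over all libraries but 0 in metatarsals, then for *Ndufb4*, where *Ndufb4c* took 38.6%, and for *Cox7c* (10.3%).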

How the data were processed

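RNA of 24 libraries was measured. Per the labels and methods, reads were trimmed (Trim Galore 0.6.5) and quantified with kallisto, tximport gave totals per gene, and the deposited expected counts carry no normalization (GRCm39 in the submitters' processing notes). These values, rounded, went into edgeR 4.0.16 (R 4.3.3) with filterByExpr over the 6 groups (21283 genes), TMM scaling and the robust quasi-likelihood test with terms for group, sequencing run and library type over 22 libraries. The fit shared the dispersion (spread between libraries) of a gene over both tissues. Estimated apart without batch terms, its median was 0.106 in hip caps and 0.0349 in metatarsals. Standard errors may therefore be too small for hip caps and too large for metatarsals. Two-sided p-values received Benjamini-Hochberg adjustment over all genes of a comparison, with a threshold of 0.05. The fit kept edgeR's default prior count. A prior count of 2 applied only to log CPM in the GC and length corrections and in the residual correlations. Runs were read from the colour strip of a heat map in the study, and this assignment is uncertain because its split differs from the kit split in the methods. Each hip cap sample came from a separate mouse. For metatarsals the sources name pooled bones and not the embryos or litters, so there p-values measure the spread between these samples. CPM were counts scaled to a common library total after TMM.

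Named in full are the 3 highest and 3 lowest members past the threshold per comparison (the extremes where none passed), the paralogue sets and the core subunits, and every other member by its complex. The members and gene lists were chosen with earlier results of these data known. Gene names and lengths came from GENCODE M21 and RefSeq (GRCm38.p6), and 2 members, *Ndufb1* and *Atp5md*, were taken by their RefSeq names. Library totals, from 4185241 to 25104240 counts, set the precision, and counting intervals cover counting error only. The test was checked on counts simulated with the same dispersion of a gene in both tissues and no effects of run or library type. That check does not cover these features of the data. Alternatives were DESeq2 1.42.0, other scalings, filters and batch terms, all 24 libraries, a replicate block, GC and length corrections, pseudogene counts, and each library left out. The sources do not say whether equal replicate numbers mark paired samples, and they were not treated as pairs. Residual correlations of equal numbers ran from -0.18 to 0.29 over 20 pairs. They cannot decide the question, because group and batch terms had been fitted to the same few libraries.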

Additional observations from a re-analysis of the deposited data

Results flagged for a closer look

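Of 144 combinations of a group with a gene or complex sum, 18 held a library far from the others of its group by Dixon's criterion, where chance flags about 1 in 20. In hip caps at 5 MPa, replicate 3 was high for complex I (929 CPM summed), *Sdha* (98.6 CPM), *Ndufv1* (28.0 CPM), *Cox6b1* (54.5 CPM), *Cox7a1* (1.17 CPM) and *Atp5g3* (41.9 CPM), and replicate 1 was high for *Cox6b2* (1.43 CPM). Replicate 3 also had 23016 CPM of cartilage markers against 38041 to 55588 CPM in the other 3 libraries, with 213 against 48.7 to 93.9 CPM of macrophage, 193 against 9.41 to 43.4 CPM of neutrophil and 6803 against 1643 to 2663 CPM of osteoblast markers, and their part in its high values was not tested. In metatarsals at 50 MPa, replicate 4 was high for *Atp5a1* (222 CPM), *Atp5b* (188 CPM), *Uqcrc1* (47.9 CPM), *Cox6b1* (46.0 CPM), *Ndufa8* (15.7 CPM) and *Cox7a1* (0.989 CPM). Among metatarsal controls, replicate 2 was high for complex IV (437 CPM summed) and replicate 4 for *Atp5g3* (33.9 CPM), and replicate 1 was low for *Atp5g2* (30.0 CPM) and replicate 3 for *Cox4i1* (55.1 CPM). In metatarsals at 5 MPa, replicate 1 was low for *Cox8a* (35.9 CPM). The pseudogene *Ndufb4c*, which was not among the members, had a median of 92.4 counts over the 24 libraries.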

How the results depend on the processing

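The number of members past the threshold was recomputed under up to 17 other settings and in 22 fits that each left out a library. Of the members past the threshold, 14 changed sign, all in the tissue comparison. Library sizes in place of TMM took 10 of them below 0, and *Ndufb7* came to -0.093, *Sdha* to -0.33, *Sdhb* to -0.20, *Uqcr11* to -0.085, *Uqcrc2* to -0.40, *Uqcrh* to -0.15, *Cox6a1* to -0.018, *Cox7a2l* to -0.10, *Atp5a1* to -0.37 and *Atp5f1* to -0.39. With all 24 libraries *Ndufa3*, *Ndufb4* and *Ndufc2* came to 0.30, 0.26 and 0.16, and with pseudogene counts added *Atp5g2* came to 0.42. Leaving out a library gave 9 to 35 members in the tissue comparison (28 with all 22 libraries), 0 to 16 for hip caps at 5 MPa (0), 0 to 22 at 50 MPa (6), 0 to 9 and 0 to 10 for the interactions at 5 and 50 MPa (0 each), and 0 for metatarsals throughout. Hip cap control replicate 2 gave each of the highest counts. For hip caps at 50 MPa the number was 0 without control replicate 3, 1 without 50 MPa replicate 3, 2 without metatarsal control replicate 3, metatarsal 5 MPa replicates 1 or 4 or metatarsal 50 MPa replicates 1, 2 or 3, 3 without hip cap 5 MPa replicate 1, and 10 without hip cap 5 MPa replicate 3 or 50 MPa replicates 1 or 4. At 5 MPa it was 1 without 50 MPa replicate 1, and the interaction at 50 MPa gave 6 without hip cap 50 MPa replicate 4 and 1 without hip cap 5 MPa replicate 3. Counts for the tissue comparison without single libraries stand with that result. The tissue comparison gave 18 members with the run term alone, and 42 with library sizes alone. There the scaling moved the median of all genes from -0.08 to -0.97, and 41 of the 42 were lower, as were 38.6% of all genes.

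For hip caps at 5 MPa, DESeq2 gave 12 members, library sizes in place of TMM 6, the library type term alone 8 and no batch terms 11. Of all genes, 1.92% were higher and 0.794% lower by DESeq2, and 0.211% and 0.0141% with library sizes. For hip caps at 50 MPa, DESeq2 gave 19 members, a minimum of 10 counts 14, the length correction 15, no filter 3 and library sizes 1. The GC correction, all 24 libraries, the library type term alone, run 1 alone and hip caps fitted alone each gave 0. For the interactions DESeq2 gave 1 at 5 MPa and 5 at 50 MPa, and a minimum of 10 counts gave 1 at 50 MPa. Adding pseudogene counts, an alternative chosen after seeing the data, gave 27 members in the tissue comparison and 8 in hip caps at 50 MPa.

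With the replicate block, hip caps gave 7 members at 5 MPa and 17 at 50 MPa, the interaction at 50 MPa gave 1 and the tissue comparison 29, and samples that share only a number were not treated as pairs. The cause of these shifts was not tested. With 3 or 4 libraries a group, and as few as 1 count for *Cox8b* in hip cap controls, depth limits the low paralogues most.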
